A study of Mus musculus with 151 samples.

Results

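The 10 genes of cumulus expansion and ovulation were followed by name through 7 RNA-seq count tables from female mice, namely Areg, Ereg, Btc, Ptgs2, Ptger2, Has2, Tnfaip6, Ptx3, Vcan and Adamts1. All 10 were found in each table, among 35976 gene names and 143 libraries. Natural females were conceived by natural mating of CF-1 dams with B6/SJL males. IVF females came from eggs of superovulated CF-1 dams fertilised in vitro with sperm of B6/SJL males, cultured to blastocysts and transferred to pseudopregnant CF-1 recipients. The Natural group had neither superovulation of the dam nor embryo transfer, so the comparison covers these steps together, and pups of both groups were delivered by cesarean section and fostered to CF-1 dams. The tables held 10 fetal ovaries of E18.5 (4 of them Natural), 9 ovaries of 12 weeks (4 Natural), 10 ovaries of 39 weeks (5 Natural) and 9 libraries of primordial germ cells (PGCs) of E13.5 (4 Natural). Single oocytes were measured at 12 weeks (36 and 40) and 39 weeks (9 and 10), and cumulus cell pools at 12 weeks (5 and 5). Females giving oocytes and cumulus cells were themselves superovulated with eCG and hCG before collection in both groups, so every cumulus library stems from hormone-stimulated follicles. The complexes were collected the day after hCG, so the cumulus values describe that time alone and not earlier hours of the response.

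The surge of luteinizing hormone reaches the mural granulosa cells of the preovulatory follicle, which release the EGF-like factors amphiregulin, epiregulin and betacellulin. These act on EGF receptors of granulosa and cumulus cells, where prostaglandin E2, made through Ptgs2, adds to the signal. Cumulus cells then lay down a hyaluronan gel that is held together by further secreted proteins, and proteases open the follicle wall.

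The genes are annotated on GRCm38 as follows. The 3 ligand genes lie near each other on chromosome 5, Ereg at 91074622 to 91093646, Areg at 91139599 to 91148432 and Btc at 91357261 to 91402994. Ptgs2 is on chromosome 1 (150100031 to 150108227) and Ptger2 on chromosome 14 (44988195 to 45003820). Of the matrix genes, Has2 is on chromosome 15 (56665627 to 56694539), Tnfaip6 on chromosome 2 (52038009 to 52056686), Ptx3 on chromosome 3 (66219910 to 66225805) and Vcan on chromosome 13 (89655312 to 89742509). The protease gene Adamts1 is on chromosome 16 (85793827 to 85803113). Counts cover the exons of each gene, from 1215 bases of Areg to 14462 bases of Vcan.

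Some libraries stood apart or went against their labels. Cumulus libraries carried names of 2 kinds, numeric codes (3 Natural and 3 IVF, called coded here) and words (2 Natural and 2 IVF, called named here), and the fit held this set as a term. Natural cumulus replicate 5 has the code of a donor set whose 12-week oocytes are labelled IVF. It was kept as Natural, as labelled. Values without it are given for Adamts1, Ptgs2, Vcan and Tnfaip6, and the comparison with oocytes is also given without its set. The fits of the coded pools and of the difference between sets hold this pool. The test of 12-week oocytes holds that donor set as IVF. Among 12-week ovaries, IVF replicate 4 was shallow, with 2839022 counts against 9731457 to 43363799 in the other 8, and markers of oviduct epithelium ran through this table (values below). At 39 weeks, IVF replicate 1 carried these markers. One part of the methods gives the collection of IVF fetuses as a day later than that of Natural fetuses. One 39-week Natural ovary has a tissue label that is a week older. Total counts ranged from 2532824 to 6345249 in cumulus pools and from 6995713 to 14830788 in fetal ovaries.

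Cumulus pools and 12-week oocytes carried the markers of their labelled cell types. All 10 granulosa and cumulus markers had reads in cumulus pools, with a summed level of 4293 to 7293 CPM, against 411 to 710 CPM in 12-week oocytes (CPM, the count scaled to library size after TMM normalization, is used throughout). The sum of 10 oocyte markers was 0.811 to 35.2 CPM in the cumulus pools, with Figla at 0, and 15210 to 30970 CPM in 12-week oocytes. Other markers were present too. In cumulus pools luteal markers summed to 19840 to 29200 CPM in Natural and 13820 to 37740 CPM in IVF. In 39-week oocytes erythroid markers reached 22130 CPM in Natural and 31420 CPM in IVF, and the lowest oocyte marker sum, in a Natural oocyte, was 2551 CPM.

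Of the 10 members, 8 passed the expression filter in cumulus cells, and none was called between IVF and Natural at a Benjamini-Hochberg adjusted p below 0.05 with edgeR's quasi-likelihood test. Over all genes, 1 of 10280 was called (0.00973%). The median log2 fold change was 0.20 over the 8 members and 0.00 over all genes. At an unadjusted p below 0.05 there were 2 members, Ptx3 and Btc, and 625 genes, and DESeq2 called 0 members. In no member did all IVF values lie on one side of all Natural values, which was seen for 0.759% of genes. In pools and tissue, fewer cells of a type and less RNA per cell cannot be told apart. The p-values measure the spread between these samples, which may in part be technical where nothing says that they came from separate animals.

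The 3 EGF-like ligands differed widely in level. Btc, betacellulin, stood at 14.2, 9.46, 13.3, 11.0 and 12.8 CPM in Natural replicates 1 to 5. In IVF replicates 1 to 5 it stood at 16.9, 8.92, 26.9, 19.7 and 20.0 CPM. In 4 of 5 IVF pools it lay above every Natural pool, and IVF replicate 2 lay below them all, with a log2 fold change of 0.59 ± 0.26 (SE, adjusted p = 0.768). Ereg, epiregulin, was 2.90, 3.44, 8.39, 2.35 and 3.71 CPM in Natural and 2.82, 4.46, 19.3, 4.11 and 2.92 CPM in IVF pools. Its highest value in each group was far from the rest, and the log2 fold change was 0.58 ± 0.51 (adjusted p = 0.920). Areg, amphiregulin, was near the limit of detection, with 10 counts over all Natural pools and 14 over all IVF pools, 0 to 0.860 CPM and 0 to 0.985 CPM, and it did not pass the filter.

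Ptgs2, the inducible cyclooxygenase, was 144, 127, 232, 213 and 520 CPM in Natural and 410, 246, 519, 127 and 131 CPM in IVF pools. The groups covered the same range, with a log2 fold change of 0.14 ± 0.24 (adjusted p = 0.963). The library sets did not: coded pools held 213 to 520 CPM and named pools 127 to 144 CPM, in both groups. Has2, the enzyme that makes hyaluronan, was split likewise, with 0.825 to 2.76 CPM in coded and 0 to 0.325 CPM in named pools. Of all genes tested, 17.9% had coded and named values that did not overlap, and Has2 was below the filter, with 25 counts over Natural and 22 over IVF pools. Ptger2, the EP2 receptor for prostaglandin E2, was 9.18, 12.5, 4.90, 5.87 and 4.33 CPM in Natural and 6.34, 3.19, 4.13, 3.28 and 5.36 CPM in IVF pools. Both values above all IVF pools came from the named Natural pools (log2 fold change -0.66 ± 0.37, adjusted p = 0.848).

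Tnfaip6 (TSG-6), which transfers heavy chains onto hyaluronan, was 268, 183, 337, 151 and 296 CPM in Natural and 144, 141, 283, 616 and 550 CPM in IVF pools. Its fold change over all pools was 0.26 ± 0.33 on the log2 scale (adjusted p = 0.949), but the 2 library sets went opposite ways. In the named pools alone it was 1.38 higher in IVF (adjusted p = 1.94e-06, with 2 pools a group), and in the coded pools alone -0.46 (adjusted p = 0.999). The fit of the named pools called far more genes in all than the fit of all pools (counts in the last section), so its call is not particular to Tnfaip6. The difference between the effects in the 2 sets, a comparison added after the values were seen, was 1.84 ± 0.48 with an adjusted p of 0.126, and 0 members were called in it against 21 of 10280 genes (0.204%). Tnfaip6 was called in it by DESeq2 (adjusted p = 0.0162) and by edgeR without IVF replicate 3 (adjusted p = 0.0353) or without Natural replicate 4 (adjusted p = 0.0347), and 1009 genes had an unadjusted p below 0.05 by edgeR, Tnfaip6 and Vcan among them.

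Vcan, versican, a large proteoglycan that binds hyaluronan, was 411, 362, 359, 226 and 540 CPM in Natural and 389, 289, 426, 218 and 183 CPM in IVF pools. The 2 lowest values were those of the named IVF pools. Over all pools the log2 fold change was -0.39 ± 0.23 (adjusted p = 0.848). It was -0.94 in the named pools (adjusted p = 1.44e-04, with 2 pools a group and many genes called, as for Tnfaip6). In the coded pools it was -0.03 (adjusted p = 0.999), and the difference between the sets had an adjusted p of 0.481. Ptx3, pentraxin 3, which links hyaluronan-bound heavy chains, was 27.3, 32.1, 34.6, 11.0 and 27.6 CPM in Natural and 36.6, 20.0, 119, 47.9 and 52.3 CPM in IVF pools. In 4 of 5 IVF pools it lay above the highest Natural pool, IVF replicate 2 lay among the Natural pools, and the log2 fold change was 1.05 ± 0.37 (adjusted p = 0.662). It was 1.25 in coded pools (adjusted p = 0.999) and 0.76 in named pools (adjusted p = 0.0512), and leaving out 1 pool at a time gave 0.47 to 1.26. Ptx3 was called when no expression filter was used (adjusted p = 4.13e-04), a setting that called far more genes in all (count in the last section).

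Adamts1, a protease that cleaves versican, was 36.2, 51.2, 115, 87.6 and 373 CPM in Natural and 58.8, 62.9, 134, 68.6 and 36.0 CPM in IVF pools. Natural replicate 5, the pool with the conflicting code, held the highest value. The log2 fold change was -0.62 ± 0.39 (adjusted p = 0.868) with this pool and -0.02 (adjusted p = 0.996) without it. Ptgs2 went from 0.14 to 0.42, Vcan from -0.39 to -0.26 and Tnfaip6 from 0.26 to 0.40 when it was left out, and none was called.

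**Figure D1:**
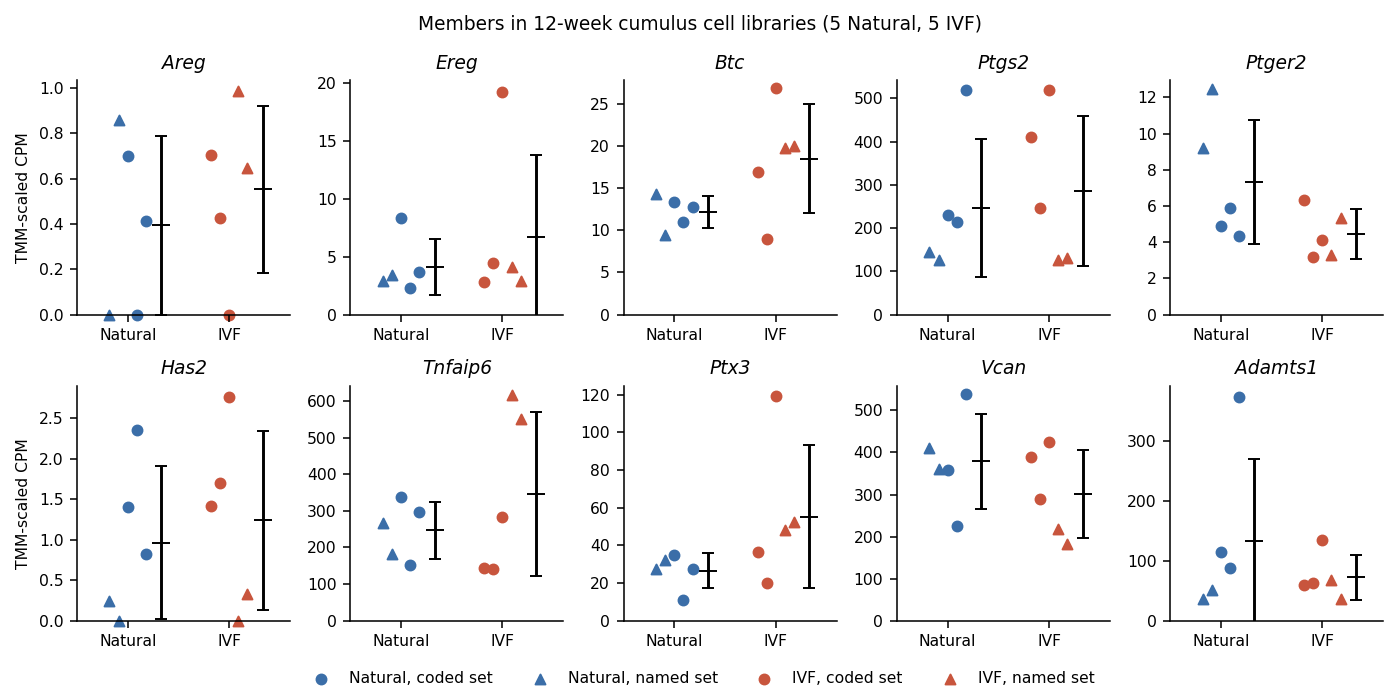
Each panel plots the TMM-scaled CPM of a member (vertical axis from 0) in the 5 Natural and 5 IVF cumulus pools, with circles for coded and triangles for named libraries and black bars for mean and SD, cut at 0. The coded and named pools separate for Ptgs2 and Has2, and the named IVF pools are highest for Tnfaip6 (616 and 550 CPM).

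Per kilobase of annotated exon, the mean level over the 10 cumulus pools was highest for Tnfaip6, at 174 ± 97.6 CPM per kb (SD, n = 10). Ptgs2 followed at 58.3 ± 34.6, Vcan at 23.5 ± 7.67, Adamts1 at 19.3 ± 18.9 and Ptx3 at 15.2 ± 11.2 CPM per kb. Each of these overlapped its neighbour in range. The ligands and the receptor were lower, with Btc at 3.39 ± 1.24, Ereg at 1.32 ± 1.25, Ptger2 at 1.14 ± 0.557 and Areg at 0.390 ± 0.304 CPM per kb. Has2 was lowest over all pools, at 0.260 ± 0.232 CPM per kb, and the order differed between the library sets. In the 6 coded pools Areg was lowest, at 0.307 ± 0.260 against 0.410 ± 0.166 CPM per kb for Has2, and in the 4 named pools Has2 was, at 0.0334 ± 0.0394 against 0.513 ± 0.361 CPM per kb for Areg. Adamts1 lay just above Vcan in the coded pools (26.2 ± 22.4 and 25.7 ± 7.56 CPM per kb) and below Vcan and Ptx3 in the named pools (9.06 ± 2.92 CPM per kb). Has2, Ereg and Ptger2 share 4.3%, 3.42% and up to 4.74% of their exon length with genes on the other strand, and whether the counting used strand is not given in the sources used here.

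The members did not move as one across pools. Among the 8 that passed the filter, the 28 pairs had a median Pearson r of 0.27 over the 10 pools (log2 CPM centred within library set), from -0.69 for Ptger2 with Tnfaip6 to 0.84 for Btc with Ptx3, and 20 pairs were positive. The genes most like the mean of the members were Itch (r = 0.94), Lemd3 (0.93), Exoc6b (0.91), Soat1 (0.91) and Gm41610 (0.90), each over the same 10 pools. These values describe pools that also share library and depth, and carry no test. The genes were picked for the highest r among all genes that passed the filter, which by itself favours high values. Lemd3 and Gm41610 were low, at a mean of 3.03 and 2.46 CPM.

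**Figure D2:**
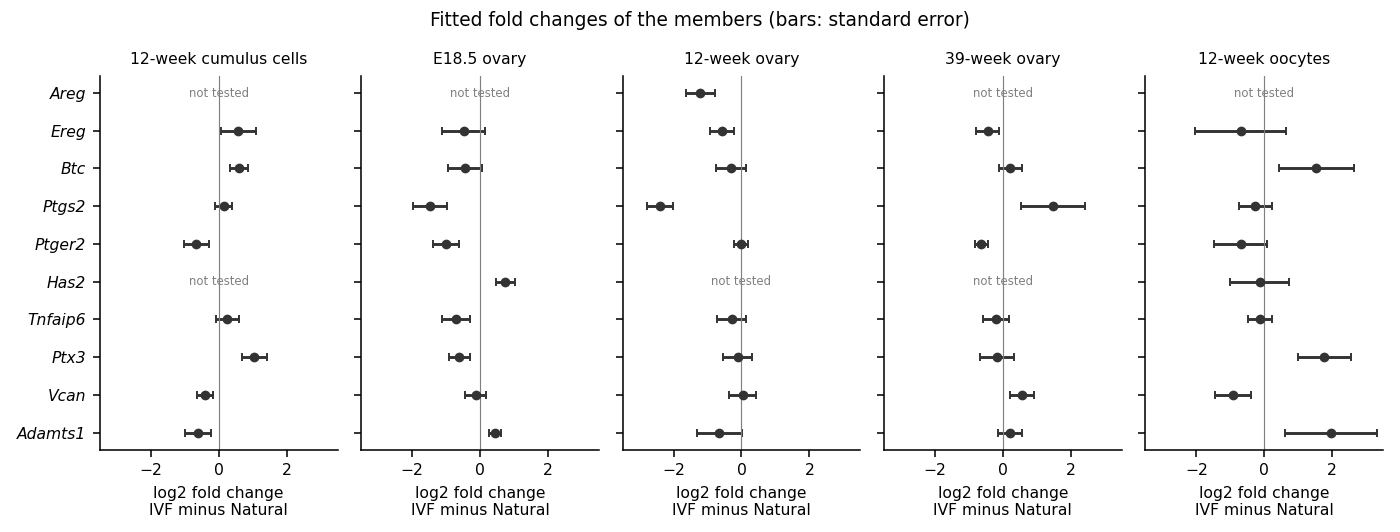
Each panel plots the fitted log2 fold change, IVF minus Natural, of each member (horizontal axis), with standard errors as bars, in cumulus cells, ovaries at 3 ages and 12-week oocytes. Members below the expression filter are marked as not tested, and no member was called in any panel. Ptgs2 in 12-week ovary is farthest from 0, at -2.40.

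The cumulus cells were next set against oocytes of the 6 donor sets found in both tables, with the donor set as a block. The sets are read from the leading numbers of the library names, and that each stands for a single donor was assumed. In 1 of these sets, 126_2, the pool is the Natural replicate 5 with the conflicting code and the oocytes are labelled IVF, so the labels give its 2 sides different groups. Of the 9 members tested, 8 were called higher in cumulus cells. Of all 13194 genes, 85.7% were called in one direction or the other, 4914 higher and 6399 lower in cumulus cells. The median log2 fold change was 4.12 for the members and -0.61 for all genes. Adamts1 differed most (6.73 ± 1.10, adjusted p = 1.59e-04), with 58.8 to 373 CPM in cumulus cells and 0 to 5.83 CPM in oocytes. Vcan followed (5.70 ± 0.58, adjusted p = 4.34e-06), then Ereg (5.36 ± 1.02, adjusted p = 5.09e-04), Ptgs2 (4.40 ± 0.47, adjusted p = 5.61e-06) and Tnfaip6 (4.12 ± 0.43, adjusted p = 4.86e-06). For these 5 genes, and for Btc and Ptger2, the lowest cumulus pool was above the highest donor set of oocytes. Btc (3.66 ± 1.01), Ptx3 (3.25 ± 0.40) and Ptger2 (2.17 ± 0.58) were also called and were higher in 6 of 6 donor sets. Has2 was higher in 5 of 6 sets and was not called (1.23 ± 0.71, adjusted p = 0.124), and Areg, higher in 3 of 6, was not tested. Without set 126_2 the same 8 members were called, with Adamts1 at 5.96, Btc at 2.99 and Has2 at 1.67 (adjusted p = 0.0520). Other sets moved 3 of the values by more than 1.5-fold: Adamts1 was 7.40 without set 126_4 and 6.11 without 35_3, Btc 4.34 without 127_2 and 3.02 without 35_3, and Ereg 6.13 without 92_5.

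**Figure D3:**
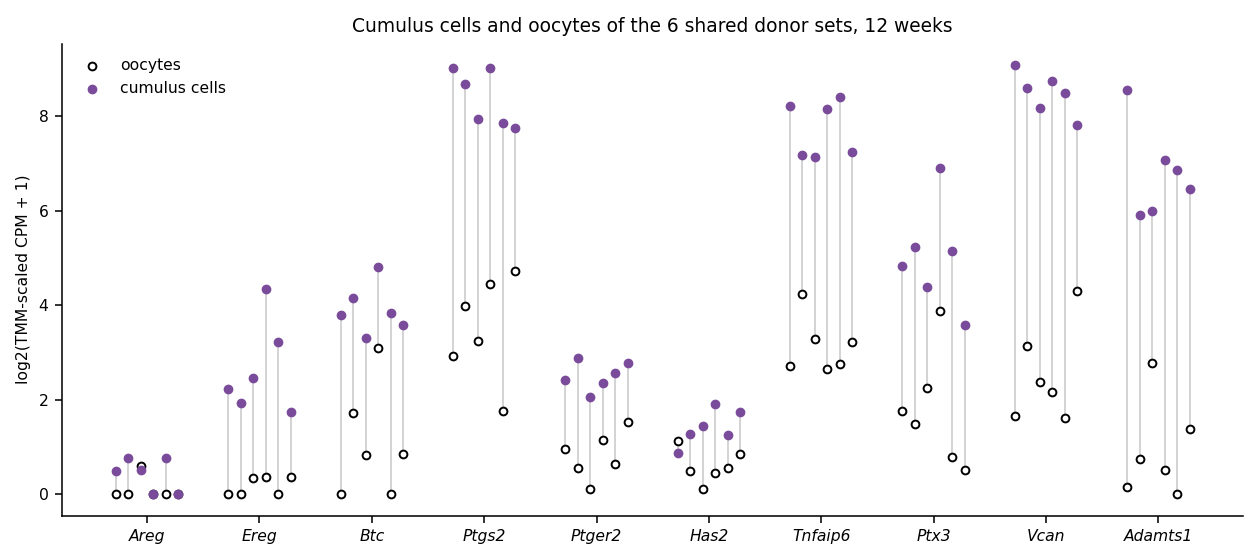
The plot shows log2(TMM-scaled CPM + 1) on the vertical axis for each member in cumulus cells (filled) and summed oocytes (open), with a grey line joining the 2 values of each of 6 donor sets, among them set 126_2, whose pool and oocytes carry different group labels. The filled points are above the open ones in all 6 sets for 8 members, with Has2 (5 of 6) and Areg (3 of 6) as the exceptions.

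In the oocytes, the members were found in part of the cells. Reads of Ptgs2 occurred in 23 of 36 Natural and 27 of 40 IVF oocytes at 12 weeks, and reads of Areg in 0 of 36 and 2 of 40. Summed per donor set, 9 members could be tested at 12 weeks and none was called, with 4 of 14444 genes called in all (0.0277%), 963 genes at an unadjusted p below 0.05 and a lowest adjusted p among members of 0.745. DESeq2 called 0 members there too. The lowest was Ptx3, at 4.25, 0.716, 0.764, 0.409 and 0.421 CPM in Natural and 2.38, 1.78, 3.78, 13.7 and 1.09 CPM in IVF donor sets (log2 fold change 1.77 ± 0.79), and the groups overlapped. At 39 weeks 1 member passed the filter, Ptgs2, with a log2 fold change of -0.42 ± 1.28 (adjusted p = 0.945), where 0.951% of 10940 genes were called. Each oocyte was 1 sample there, since no donor is named. The p-value and the share called thus measure the spread between oocytes, not between females, and are not comparable with those at 12 weeks. The Ptgs2 median was 1.78 CPM in Natural and 0.971 CPM in IVF oocytes of 39 weeks. One oocyte in each group stood far above, Natural replicate 8 at 31.1 and IVF replicate 10 at 22.4 CPM. In IVF replicate 10, Tnfaip6 (19.6 CPM), Ptx3 (7.95 CPM) and Btc (6.23 CPM) were also the highest of their group. The 7 luteal markers summed to 316 CPM in this oocyte and 248 CPM in Natural replicate 8, against medians of 36.0 and 93.8 CPM in their groups, and their part was not tested. Among PGCs, the founders of the germ line, 1 member passed the filter, Vcan, at 4.74 ± 1.05 CPM in IVF (SD, n = 5) and 6.05 ± 3.15 CPM in Natural (n = 4). Its log2 fold change was -0.35 ± 0.46 (adjusted p = 1). With edgeR no gene was called there (0% of 12763), 349 had an unadjusted p below 0.05, and Ereg, Btc and Has2 had no read in 9 of 9 libraries.

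In fetal ovary at E18.5, 9 members were tested, 7 with lower and 2 with higher fitted values in IVF, and none was called against a background of 5.43% of 16415 genes. Their median log2 fold change was -0.48, against 0.00 over all genes. Among them, 4 had an unadjusted p below 0.05, namely Ptgs2, Has2, Ptger2 and Adamts1, as did 3960 of the 16415 genes. Ptgs2 was 7.49, 4.72, 12.8 and 1.76 CPM in the Natural ovaries, and between 0.861 and 3.94 CPM (median 2.49) in the 6 IVF ovaries. In Natural, 3 ovaries lay above all IVF ovaries and the other was among them (log2 fold change -1.46 ± 0.50, adjusted p = 0.101, and 0.0333 with DESeq2). Ptger2 was 1.83, 1.27, 2.39 and 1.76 CPM in Natural and 0.430 to 1.5 CPM (median 0.821) in IVF ovaries (-0.99 ± 0.38, adjusted p = 0.133).

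Has2 ran the other way, with 19.7, 9.34, 15.9 and 15.5 CPM in Natural and 13.3 to 36.6 CPM (median 22.4) in IVF fetal ovaries. In IVF, 5 of 6 ovaries were above every Natural ovary (0.75 ± 0.28, adjusted p = 0.124). Adamts1 was 379, 179, 226 and 261 CPM in Natural and 281 to 426 CPM in IVF (0.44 ± 0.18, adjusted p = 0.160, or 0.0150 without Natural replicate 1). Haemoglobin and other erythroid markers moved beside these values, with a sum of 598 to 1599 CPM in Natural and 1599 to 4577 CPM in IVF ovaries, and their part in the result was not tested. Areg had no read in the 4 Natural ovaries and 3 counts over the 6 IVF ovaries.

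At 12 weeks 9 members were tested in whole ovary and none was called, against 1 of 17628 genes (0.00567%) and 2544 at an unadjusted p below 0.05. Of these, 8 of 9 had lower fitted values in IVF, with a median of -0.31 against 0.01 for all genes. For 2 members, Ptgs2 and Areg, every IVF ovary was below every Natural ovary, as for 3.64% of genes (6.09% did not overlap in either direction). Ptgs2 was 7.45, 5.19, 12.1 and 8.68 CPM in Natural and 1.38, 2.69, 0.818, 2.03 and 1.03 CPM in IVF ovaries. The difference was -2.40 ± 0.39 on the log2 scale, with an unadjusted p of 9.32e-05 and an adjusted p of 0.11 by edgeR, and 7.52e-07 by DESeq2. Areg was 2.55, 2.32, 3.61 and 2.70 CPM in Natural and 1.24, 1.46, 0.205, 1.35 and 1.68 CPM in IVF ovaries (-1.21 ± 0.43, adjusted p = 0.256).

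Oviduct epithelium markers moved with both genes. The sum of the 7 markers was 6558, 3641, 7995 and 3540 CPM in Natural and 2843, 3157, 93.3, 921.5 and 681.4 CPM in IVF ovaries of 12 weeks, and 6 of the 7 did not overlap between the groups, Foxj1 being the exception. Ovgp1, the oviductal glycoprotein, was 2747 to 6308 CPM in Natural and 2.35 to 2588 CPM in IVF ovaries, and Pax8 was at 0 in an IVF ovary. The part of this tissue in the Ptgs2 and Areg values was not tested. The sample labels used here give no estrous cycle stage for the adult ovaries. The methods state proestrus only for females whose serum hormones were measured, and the part of cycle stage was not tested either.

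The other members in the 12-week ovary overlapped between the groups. Ereg (-0.58 ± 0.35), Btc (-0.31 ± 0.43), Tnfaip6 (-0.29 ± 0.44), Ptx3 (-0.11 ± 0.42), Ptger2 (-0.02 ± 0.21) and Vcan (0.04 ± 0.39) had adjusted p-values of 0.463 to 0.981. Adamts1 was 409 CPM in Natural replicate 1 and 44.5 to 158 CPM in the other 8 ovaries. Its log2 fold change of -0.65 ± 0.67 became 0.59 without that ovary (adjusted p = 0.662). Has2 was at most 0.514 CPM and was not tested.

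At 39 weeks 8 members were tested in ovary, with 4 fitted values higher and 4 lower in IVF and none called, where 0.262% of 17186 genes were called. By DESeq2 also 0 were called, and 1 of the 8 members had an unadjusted p below 0.05 by edgeR, as did 3303 of all genes. Ptger2 had the lowest adjusted p, with 32.7, 30.1, 25.6, 36.6 and 21.7 CPM in Natural and 19.2, 19.2, 20.7, 24.0 and 11.7 CPM in IVF ovaries. In Natural, 4 of 5 ovaries lay above all IVF ovaries (-0.63 ± 0.20, adjusted p = 0.145). Luteal markers moved beside it, with a sum of 20930 to 34530 CPM in Natural and 11650 to 26110 CPM in IVF ovaries, and so did endothelial markers, with 299.2 to 416.2 CPM and 197.5 to 317.7 CPM. Granulosa markers summed to 910 to 2317 CPM in Natural and 1520 to 4169 CPM in IVF ovaries, and each of these sums overlapped between the groups. The part of these cell types was not tested.

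Ptgs2 was 0.635, 0.224, 0.358, 0.451 and 0 CPM in Natural and 3.15, 0.401, 0.467, 0.190 and 0.468 CPM in IVF ovaries of 39 weeks. The fitted difference of 1.47 ± 0.94 (adjusted p = 0.403) became 0.25 (adjusted p = 0.880) without IVF replicate 1. That ovary had an oviduct marker sum of 9218 CPM, against 59.2 to 240.7 CPM in the other 9. Areg was at 0 in 5 of 5 Natural ovaries and at 5.23, 0.401, 0, 0.127 and 0.0585 CPM in IVF ovaries, with the highest value in the same library, and it was below the filter. The remaining members had log2 fold changes from -0.45 (Ereg) to 0.57 (Vcan) and adjusted p-values of 0.392 or more.

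**Figure D4:**
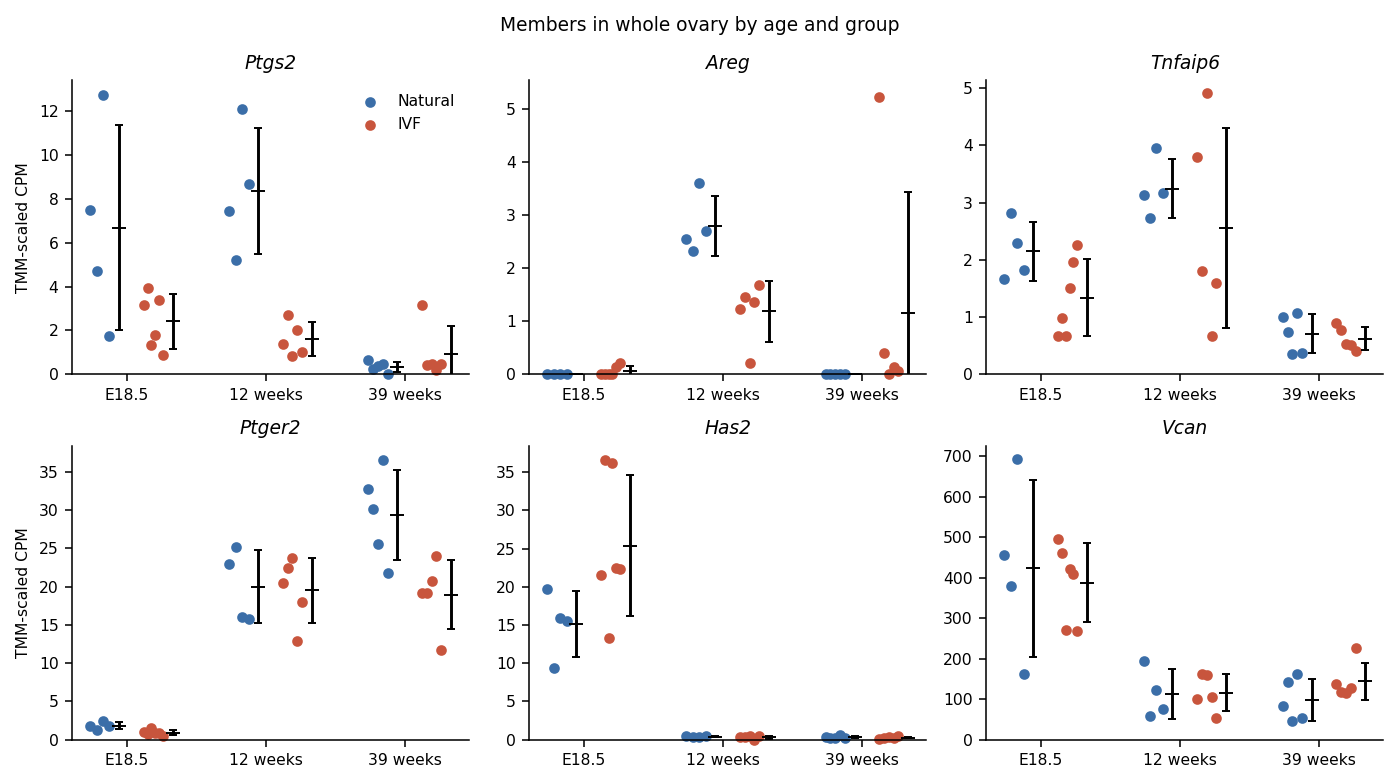
Each panel plots the TMM-scaled CPM of a member (vertical axis from 0) in Natural and IVF ovaries at E18.5, 12 and 39 weeks, with black bars for mean and SD, cut at 0. Ptgs2 and Areg of Natural ovaries are highest at 12 weeks among adult Natural ovaries (5.19 to 12.1 and 2.32 to 3.61 CPM), and Ptger2 is below 3 CPM in all fetal ovaries.

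The 6 ovary groups were then fitted together to follow the members by age. Age and table cannot be told apart here, since each age was a table of its own. From E18.5 to 12 weeks in Natural ovaries, 2 members rose and 2 fell, where 49.7% of 19724 genes were called. Ptger2 rose from 1.81 ± 0.46 to 20.0 ± 4.82 CPM (SD, n = 4 each, log2 difference 3.54 ± 0.29, adjusted p = 2.62e-10). Areg rose from 0 counts in 4 of 4 fetal ovaries to 2.80 ± 0.56 CPM (adjusted p = 0.00155), which is at least 10.9-fold higher against a floor of 3 counts per library. Has2 fell from 15.1 ± 4.29 to 0.390 ± 0.090 CPM (-5.17 ± 0.43, adjusted p = 4.54e-10) and Vcan from 423 ± 219 to 113 ± 61.5 CPM (-1.83 ± 0.44, adjusted p = 0.00126). Adamts1 was not called (-0.75 ± 0.52, adjusted p = 0.234), but it was without 12-week Natural replicate 1 (-2.02, adjusted p = 5.52e-04). Ereg was at 1.27 ± 0.54 (adjusted p = 0.0518). Cell type markers moved beside these genes, and 7 of the 9 lists did not overlap between the Natural ovaries of the 2 ages. Theca and stroma markers went from 18320 to 29970 CPM at E18.5 to 5672 to 8432 CPM at 12 weeks, granulosa markers from 237.8 to 426.8 CPM to 1790 to 2621 CPM, luteal markers from 36.2 to 65.3 CPM to 12790 to 24980 CPM, and oviduct markers from 285.9 to 747.6 CPM to 3540 to 7995 CPM. The other 3 lists were those of endothelial, erythroid and fetal germ cells, and the part of the cell types was not tested.

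From 12 to 39 weeks in Natural ovaries, 3 members fell and 1 rose, where 21.6% of genes were called. Ptgs2 fell from 8.35 ± 2.88 (n = 4) to 0.334 ± 0.239 CPM (n = 5), a log2 difference of -4.55 ± 0.78 (adjusted p = 4.12e-04). Areg fell to 0 counts in 5 of 5 ovaries (adjusted p = 0.00161), at least 22.3-fold lower. DESeq2 gave no adjusted p for Areg in either age step. Tnfaip6 fell from 3.24 ± 0.51 to 0.709 ± 0.336 CPM (-2.06 ± 0.44, adjusted p = 0.00206). Ptger2 rose to 29.4 ± 5.86 CPM (0.68 ± 0.24, adjusted p = 0.0395), a call that was lost on leaving out any of 6 single Natural ovaries (12-week replicates 1, 3 and 4, and 39-week replicates 1, 2 and 4, adjusted p up to 0.122). The summed oviduct markers moved beside these genes, with 3540 to 7995 CPM at 12 weeks and 59.2 to 240.7 CPM at 39 weeks in Natural ovaries. Endothelial markers, the other list of 9 that did not overlap, went from 214.3 to 265.1 CPM to 299.2 to 416.2 CPM. The part of these cells was not tested, nor was that of the estrous cycle stage, which the labels do not give.

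Because these 4 members moved with age, their promoters are shown, in the RefSeq sequence of GRCm38.p6. Of the 10 members 8 had an entry, with Has2 and Ereg missing. The bases before the start are printed 5′ to 3′ on the gene's strand, the + strand for each, and capitals mark matches on either strand to the motifs named next. They are at chr5:91139349-91139598, chr1:150099781-150100030, chr2:52037863-52038008 (which ends just before the GENCODE start of the gene) and chr14:44987861-44988110 in this order.
Areg: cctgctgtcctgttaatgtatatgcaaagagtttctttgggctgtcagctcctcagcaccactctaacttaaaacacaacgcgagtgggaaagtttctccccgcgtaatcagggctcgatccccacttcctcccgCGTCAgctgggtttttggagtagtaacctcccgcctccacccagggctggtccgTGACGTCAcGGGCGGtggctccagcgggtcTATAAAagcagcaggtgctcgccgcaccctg
Ptgs2: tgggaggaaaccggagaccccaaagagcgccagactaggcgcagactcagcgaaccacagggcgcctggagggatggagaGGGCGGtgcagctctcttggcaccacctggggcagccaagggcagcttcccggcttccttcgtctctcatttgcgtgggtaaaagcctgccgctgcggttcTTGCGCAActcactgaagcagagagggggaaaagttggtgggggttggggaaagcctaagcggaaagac
Tnfaip6: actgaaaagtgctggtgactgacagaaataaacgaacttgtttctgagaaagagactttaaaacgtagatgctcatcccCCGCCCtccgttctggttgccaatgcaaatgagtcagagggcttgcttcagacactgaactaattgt
Ptger2: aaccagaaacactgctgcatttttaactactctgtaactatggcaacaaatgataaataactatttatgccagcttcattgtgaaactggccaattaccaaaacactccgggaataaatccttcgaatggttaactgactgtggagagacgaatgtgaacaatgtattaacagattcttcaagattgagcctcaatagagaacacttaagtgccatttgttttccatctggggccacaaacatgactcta
A last stretch of 24 bases, chr1:150100036-150100059 just after the start of Ptgs2, is exonic.
Ptgs2 site: caccactaCGTCACGTGgagtccg

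The motifs were searched on both strands in windows of 250 bases before and 50 after the start. Areg holds the full cAMP response element, TGACGTCA, which 1.79% of 32851 promoters hold. The short element TGACG, which overlaps the full one, occurs in 4 members (Areg, Ptgs2, Btc and Adamts1) and in 20.8% of promoters. Ptgs2 holds the palindrome TTGCGCAA, bound by C/EBP factors, which 0.183% of promoters hold, and an E-box, CACGTG, which 7.15% hold. The E-box and the short element overlap in the site after its start. TATAAA is in Areg and Adamts1 (13.6% of promoters) and GGGCGG in 5 members, Areg, Ptgs2, Tnfaip6, Vcan and Adamts1 (35.7%). None of these letters occurs in the Ptger2 window. The matches are a description of letters in these windows.

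The IVF effect itself was compared between ages. Between E18.5 and 12 weeks, none of the 10 members differed in IVF effect, where 0.314% of genes did (62 of 19724, and 2766 at an unadjusted p below 0.05), and DESeq2 called 0 members and edgeR 1 at an unadjusted p below 0.05, Ptger2 (0.99 ± 0.37, adjusted p = 0.221). Between 12 and 39 weeks 2 members, Ptgs2 and Areg, differed, where 2.71% of genes did. The Ptgs2 effect was -2.40 at 12 weeks and 1.47 at 39 weeks in the single fits, and the difference was 3.83 ± 1.01 (adjusted p = 0.0408). Without 39-week IVF replicate 1, the library with oviduct markers, it was 2.68 (adjusted p = 0.134). For Areg the fitted difference was 8.80 ± 2.01 (adjusted p = 0.0318), or 6.04 (adjusted p = 0.0496) without this library, a size that depends on the prior count since all 39-week Natural ovaries were at 0. These calls rest on single libraries: the Ptgs2 call was lost on leaving out any of 11 single ovaries (12-week Natural replicates 1, 3 and 4, 12-week IVF replicates 1, 3 and 5, 39-week Natural replicates 2, 3, 4 and 5, and 39-week IVF replicate 1, adjusted p = 0.0533 to 0.134). The Areg call was lost on leaving out any of 6 (12-week Natural replicates 1 and 3, 12-week IVF replicates 1 and 3, and 39-week Natural replicates 4 and 5, adjusted p = 0.0542 to 0.0698). The age step, the 12-week comparison and this difference share the 12-week Natural ovaries.

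**Figure D5:**
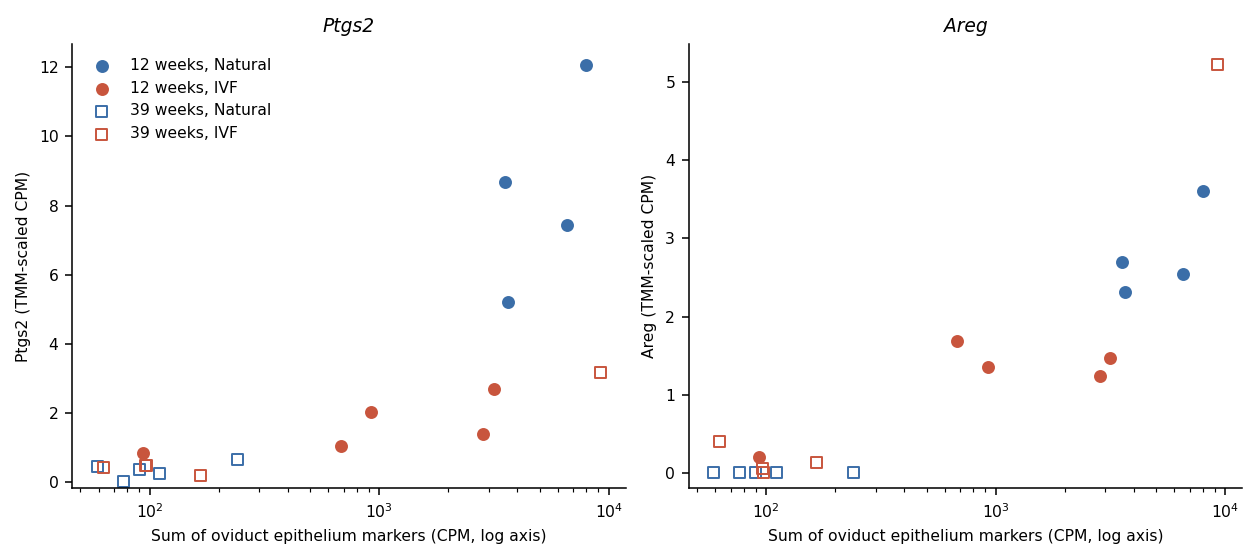
The panels plot the TMM-scaled CPM of Ptgs2 and Areg (vertical axes) against the summed CPM of 7 oviduct epithelium markers (horizontal log axis) in 19 adult ovaries, filled at 12 and open at 39 weeks. The open IVF point at 9218 CPM is 39-week IVF replicate 1, with Ptgs2 at 3.15 and Areg at 5.23 CPM, and the 12-week Natural ovaries hold the highest Ptgs2 values.

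Beyond the 10 members, 80 genes of the same pathway in 8 roles were counted in each comparison. In cumulus cells 54 were tested and edgeR called 0 between IVF and Natural, with 7 at an unadjusted p below 0.05 (13%, against 6.08% of all genes) and 1 called by DESeq2. In 12-week ovary 0 of 74 were called, with 15 at an unadjusted p below 0.05 (20.3%, against 14.4% of all genes) and 3 called by DESeq2. In 12-week oocytes edgeR called 0 of 55, in 39-week oocytes 0 of 39 and in PGCs 0 of 38, and DESeq2 called 0 in each. At an unadjusted p below 0.05 there were 4 (7.27%, against 6.67% of all genes), 2 (5.13%, against 11%) and 0 (0%, against 2.73%), in this order. At E18.5, 5 of 73 were called (6.85%, against 5.43% of all genes), 26 had an unadjusted p below 0.05 (35.6%, against 24.1%) and DESeq2 called 11. Of the 5, 2 rose in IVF, Lhcgr, the luteinizing hormone receptor (2.33 ± 0.51, adjusted p = 0.0241), and Star, which brings cholesterol into mitochondria (0.72 ± 0.19, adjusted p = 0.0420). The 3 that fell were Gdf9, an oocyte growth factor that enables cumulus expansion (-2.14 ± 0.48, adjusted p = 0.0256), Ptges, a prostaglandin E synthase (-0.98 ± 0.20, adjusted p = 0.0181), and Serpine2, a protease inhibitor (-0.57 ± 0.14, adjusted p = 0.0354). The summed oocyte markers, of which Gdf9 is one, were 185 to 621 CPM in Natural and 57.7 to 226 CPM in IVF fetal ovaries. Gdf9 was 17.9, 27.8, 7.58 and 57.2 CPM in Natural and 2.07 to 10.4 CPM in IVF ovaries, and without Natural replicate 4 it was at -1.50 (adjusted p = 0.0821). The Gdf9 and Lhcgr calls were each lost on leaving out any of 4 of the 10 ovaries, that of Serpine2 with 6 and that of Star with 9, and that of Ptges with none (adjusted p up to 0.0416). Leaving out 1 ovary gave 1 to 12 pathway genes called, 12 without Natural replicate 1. At 39 weeks 1 of 74 was called (1.35%, against 0.262% of all genes), 18 had an unadjusted p below 0.05 (24.3%, against 19.2%) and DESeq2 called 8. Plau, the urokinase protease, fell (-0.84 ± 0.14, adjusted p = 0.0408), a call lost on leaving out any of 8 of the 10 ovaries (adjusted p up to 0.113).

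With age in Natural ovaries, 35 of 77 pathway genes rose and 14 fell from E18.5 to 12 weeks, which is 63.6% called against 49.7% of all genes. From 12 to 39 weeks 11 rose and 13 fell, 31.2% against 21.6% of all genes. The latter 24 became 10 without 12-week Natural replicate 1, 15 without replicate 2 and 13 without replicate 3, and 15 and 13 without 39-week Natural replicates 3 and 5. Star (8.84 ± 0.61) and Nr5a2, a nuclear receptor of granulosa cells (4.06 ± 0.31), rose in the first step, and Hmmr, a hyaluronan receptor (-2.09 ± 0.33), and Erbb2 (-1.12 ± 0.22) fell. In the second step Pgr, the progesterone receptor that ovulation needs (-2.63 ± 0.55, adjusted p = 0.00189), the EP4 receptor gene Ptger4 (-1.23 ± 0.32, adjusted p = 0.00873) and the EGF receptor inhibitor Errfi1 (-1.06 ± 0.18, adjusted p = 4.88e-04) fell, as Ptgs2 and Areg did. Edn2, endothelin 2, was at -3.44 ± 0.87 (adjusted p = 0.00693), with 14.4 CPM in 12-week Natural replicate 1 and 0.857 to 1.74 CPM in the other 3, and at -1.57 without that ovary (adjusted p = 0.181). Plau (1.06 ± 0.20, adjusted p = 9.46e-04) and Adamts9 (0.78 ± 0.22, adjusted p = 0.0128) rose. The IVF effect differed between 12 and 39 weeks for 3 of 77 (3.9%, against 2.71% of all genes), Cebpb (1.07 ± 0.25, adjusted p = 0.0312), Errfi1 (0.93 ± 0.25, adjusted p = 0.0459) and Plau (-0.998 ± 0.274, adjusted p = 0.0464). It differed between E18.5 and 12 weeks for 2 of 77 (2.6%, against 0.314%), Ptges (1.24 ± 0.26, adjusted p = 0.0441) and Gdf9 (2.65 ± 0.58, adjusted p = 0.0492, or 2.03 with 0.157 without E18.5 Natural replicate 4). These 5 calls were lost on leaving out any of 5 (Cebpb), 16 (Errfi1), 20 (Plau), 18 (Ptges) or 21 (Gdf9) of the 29 ovaries. In cumulus cells against oocytes, 34 of 63 were higher and 26 lower, which is 95.2% called against 85.7% of all genes, with Timp1 (7.72 ± 0.56) and Sdc4 (7.13 ± 0.52) among the higher and the oocyte factors Gdf9 (-10.62 ± 0.32) and Bmp15 (-10.40 ± 0.38) among the lower.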

How the data were processed

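The authors deposited reads per gene as counts, without normalization, in 7 tables of 35976 gene names. For the low-input libraries their methods name trimgalore, STAR, featureCounts and mm10, and the submitters' processing notes list Trimmomatic 0.32, STAR 2.3.0e, featureCounts 1.5.0 and DESeq2. Between 56.5% and 73.2% of the nonzero counts in a table were even numbers. No column of values in the tables went unused (0 left out). Each ovary table held 27 rows with a number as the gene name, which were kept.

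From the counts, edgeR 4.0.16 in R 4.3.3 was used (TMM, filterByExpr, quasi-likelihood tests, two-sided, Benjamini-Hochberg over all genes tested, threshold 0.05), and DESeq2 1.42.0 served as an alternative. The pipeline was tested on simulated data. Donor sets of 12-week oocytes were read from the library names and assumed to mark a shared donor, and counts were summed per set. Cumulus fits held the library set as a term. Each 39-week oocyte was 1 sample, since no donor is named. The 10 members were all named, as were the 5 genes most like the members in cumulus cells. Pathway genes were named from those called, among the 5 with the smallest adjusted p in each direction and comparison. Not all of these are named in the text, and those named are not always the ones with the smallest adjusted p. Members, lists and motifs were chosen with earlier results of these data known. Floors are 3 counts and cover counting error only. Exon lengths and positions came from GENCODE on GRCm38, the build named mm10, and promoters from RefSeq. Alternatives were RLE size factors, no filter, DESeq2, each sample left out, a block for the replicate number, library sets apart and single oocytes. Cumulus cells at 39 weeks were not analysed here. Figures were drawn with matplotlib 3.10.9.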

Additional observations from a re-analysis of the deposited data

Results flagged for a closer look

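In 15 of 90 groups of 4 to 10 samples, the highest sample of a member lay farther from the others than Dixon's 95% criterion allows. In cumulus cells these were Adamts1 (373.4 CPM) and Ptgs2 (520.3 CPM) in Natural replicate 5, the pool with the conflicting code, and Ereg in IVF replicate 3 (19.28 CPM) and Natural replicate 3 (8.393 CPM). In adult ovary they were Adamts1 in 12-week Natural replicate 1 (409.1 CPM), Adamts1 (154.0 CPM) and Ptgs2 (3.148 CPM) in 39-week IVF replicate 1, the ovary with oviduct markers, and Vcan in 39-week IVF replicate 5 (225.2 CPM). In 12-week oocytes they were Adamts1 in IVF donor set 126_4 (5.825 CPM) and Natural donor set 92_5 (1.62 CPM), Ptx3 in IVF donor set 127_2 (13.71 CPM), and Ereg (1.111 CPM) and Ptx3 (4.252 CPM) in Natural donor set 35_1. In 39-week oocytes they were Ptgs2 in IVF replicate 10 (22.35 CPM) and Natural replicate 8 (31.1 CPM). What sets these samples apart was not tested. The criterion's rate of about 1 in 20 groups assumes independent, normally distributed values. These are CPM values of members that share libraries, so the 15 flagged groups cannot be read against that rate.

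The IVF effect in ovary differed between 12 and 39 weeks for Ptgs2 (log2 difference 3.831, adjusted p = 0.0408) and Areg (8.802, adjusted p = 0.0318) by edgeR's test of the difference itself. Without 39-week IVF replicate 1 they were 2.68 (adjusted p = 0.134) and 6.04 (adjusted p = 0.0496), and the part of oviduct tissue was not tested.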

How the results depend on the processing

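Over 102 member effects, 2141 alternative values were computed, of which 2015 kept their direction and side of the threshold or moved by less than their spread, 80 moved, 20 newly passed, 26 no longer passed, and 0 of the called values changed sign. With DESeq2, 1 member was called at E18.5 (Ptgs2) and 1870 genes, 1 member (Ptgs2) and 635 genes in 12-week ovary, 1135 genes in 39-week ovary, 54 in 12-week and 603 in 39-week oocytes, 31 in cumulus cells, 322 for the IVF effect from E18.5 to 12 weeks, and 1 member (Ptgs2, with the adjusted p of Areg given as NA) and 1531 genes from 12 to 39 weeks. Without the expression filter 9 genes were called in 12-week ovary, 28 in 39-week ovary, 19 in 12-week oocytes, 16 for the IVF effect from E18.5 to 12 weeks, and 1 member (Ptx3) and 104 genes in cumulus cells. RLE size factors gave 29 for the effect from E18.5 to 12 weeks, and each oocyte as 1 sample gave 746 in 12-week oocytes. In cumulus cells 0 genes were called without the set term, 2 in coded pools, and 2 members (Tnfaip6, Vcan) and 639 genes in named pools. The added set comparison gave 2 members (Tnfaip6, Adamts1) and 206 genes without the filter, and 1 (Tnfaip6) and 99 with DESeq2. The causes of these shifts were not tested. Natural and IVF samples of the same replicate number deviated together in 3 of 4 pairs of PGCs and 3 of 5 pairs of 39-week ovaries. It was 2 of 4 pairs in 12-week ovary, 1 of 5 in cumulus cells, and 0 at E18.5 and in 39-week oocytes. Pairs of unlike number were not set beside these, so the check cannot tell whether samples are paired by their replicate numbers. As a replicate block they gave 3 genes at E18.5, 0 in 12-week ovary, 24 in 39-week ovary, 42 in 39-week oocytes, 0 in cumulus cells, 0 for the effect from E18.5 to 12 weeks, and 0 members (Ptgs2, adjusted p = 0.0921, Areg, 0.0834) and 104 genes from 12 to 39 weeks. Leaving out 1 library at a time gave 0 to 1 members and 313 to 1973 genes at E18.5, 0 and 1 to 5 in 12-week ovary, 0 and 0 to 123 in 39-week ovary, 0 and 0 in PGCs, 0 and 1 to 8 in 12-week oocytes, and 0 and 1 to 5 in cumulus cells. It gave 4 to 5 members and 9017 to 10458 genes for the first Natural age step, 3 to 4 and 3026 to 4956 for the second, 0 and 0 to 96, then 0 to 2 and 80 to 1111, for the differences in IVF effect, 8 and 11050 to 11703 for cumulus cells against oocytes, and 0 to 1 and 2 to 53 for the set comparison. For 39-week oocytes, with 9 and 10 a group, no sample was left out. Depth limits Areg and Has2, which had at most 25 counts per group in cumulus cells.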
